A study of Mus musculus with 24 samples.

Results

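The genes that write, copy and erase DNA methylation were followed through the conversion of mouse embryonic stem cells (ESCs) into expanded or extended potential stem cells (EPSCs), and through the shut-off of an Oct4, Sox2 or Nanog transgene in EPSCs. The 10 members were chosen by name, from their known function, with earlier results of these data known: the methyltransferase genes Dnmt1, Dnmt3a and Dnmt3b, their cofactor Dnmt3l, the hemimethylation readers Uhrf1 and Uhrf2, the dioxygenase genes Tet1, Tet2 and Tet3, and the glycosylase gene Tdg. All 10 were listed and passed the filter on low values in both expression tables, which hold 23095 and 25476 genes. The poly(A) RNA of 24 libraries was sequenced, 2 in each of 12 groups. In the first table, wild-type J1 ESCs, a laboratory line kept in serum with 2i and LIF on mouse embryonic fibroblast feeders or gelatin, were set beside the D-EPSCs and L-EPSCs made from them. Per the study's methods, both EPSC types were kept without feeders for several passages before RNA sequencing. Whether the sequenced ESCs were on feeders or on gelatin is not stated. D-EPSC medium has an N2B27 base with LIF, CHIR99021, dimethindene maleate and minocycline hydrochloride, and L-EPSC medium has a knockout serum replacement base with LIF, CHIR99021, PD0325901 and inhibitors of Src, tankyrase, JNK and p38. In the second table, each of the Oct4-, Sox2- and Nanog-cKO lines lacks the endogenous gene and lives on a transgene of it that doxycycline (Dox) shuts off, in ESCs, in untreated L-EPSCs and in Dox-treated L-EPSCs. Each cKO line is 1 established line (ZHBTc4, 2TS22C and NgcKO), all of its groups carry the deletion, and no D-EPSCs of these lines were measured. A dose and a day of Dox are given for the pictures and the protein blots of these lines, but not for the RNA libraries, and whether the cKO ESCs had the medium named for J1 ESCs is not given in the sources used here.

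DNA methylation sits on the cytosine of CpG dinucleotides and is copied at each round of replication, when Uhrf1 finds the half-methylated site behind the fork and brings Dnmt1 to it. New methylation is laid down by Dnmt3a and Dnmt3b, helped by Dnmt3l, which has no catalytic activity of its own. Tet enzymes oxidize 5-methylcytosine, and Tdg excises the most oxidized forms so that base excision repair can restore an unmethylated cytosine. Mouse ESCs kept in 2i are known for low methylation, cells of the early epiblast for a rise in the de novo enzymes, and Tet1 and Tet2 for high expression in pluripotent cells. The libraries measure RNA, and methylation itself was not measured in them.

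The members lie on 8 chromosomes of the NCBIM37 mouse genome (mm9), and all are protein coding. Dnmt1 spans chr9:20711650-20757317 on the minus strand, Dnmt3a chr12:3806007-3914443 on the plus strand and Dnmt3b chr2:153475186-153513466 on the plus strand. Dnmt3l lies at chr10:77504692-77526367 (plus), Uhrf1 at chr17:56442744-56462909 (plus) and Uhrf2 at chr19:30105003-30168212 (plus). The Tet genes lie on the minus strand, Tet1 at chr10:62267318-62361866, Tet2 at chr3:133126643-133207354 and Tet3 at chr6:83312367-83391672, and Tdg lies at chr10:82092573-82113544 on the plus strand. Near-identical copies can share reads with 3 of them. For Tdg, 5 stretches on chromosomes 7, 10, 15 and 19 match the transcript at 98.7% to 99.6% identity, for Uhrf1 1 stretch on chromosome X matches 71.8% of the transcript at 98.2%, and for Tet1 1 stretch on chromosome 8 matches 1.99% of the transcript at 95%. Values for Tdg and Uhrf1 are therefore less certain than those of the other members. Genes on the opposite strand overlap exons of Dnmt3a (0.799% of its exon bases), Dnmt3l (2.24%) and Tdg (6.83%), and the strand setting of the counting is not stated.

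The upstream sequences of Dnmt3l, Tet1 and Tet2 are shown because these 3 genes had the largest log2 fold changes of any member in the comparisons that follow. Each is the 250 bases before an annotated start, from RefSeq on GRCm38.p6, written 5′ to 3′ on the strand of the gene with every CG in capitals, the dinucleotide that the members' products act on. The Dnmt3l window is at chr10:78042037-78042286 (plus) and belongs to the most upstream of 3 annotated starts, the Tet1 window is at chr10:62887325-62887574 (minus) and the Tet2 window at chr3:133544391-133544640 (minus).
Dnmt3l: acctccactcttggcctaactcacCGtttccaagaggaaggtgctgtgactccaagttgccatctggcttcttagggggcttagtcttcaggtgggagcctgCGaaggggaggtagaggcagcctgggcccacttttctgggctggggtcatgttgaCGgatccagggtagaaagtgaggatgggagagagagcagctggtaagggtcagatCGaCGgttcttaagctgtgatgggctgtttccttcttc
Tet1: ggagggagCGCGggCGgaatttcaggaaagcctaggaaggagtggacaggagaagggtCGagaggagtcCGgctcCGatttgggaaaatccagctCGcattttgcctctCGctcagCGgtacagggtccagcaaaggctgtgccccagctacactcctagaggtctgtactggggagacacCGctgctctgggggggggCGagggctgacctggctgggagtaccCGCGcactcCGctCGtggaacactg
Tet2: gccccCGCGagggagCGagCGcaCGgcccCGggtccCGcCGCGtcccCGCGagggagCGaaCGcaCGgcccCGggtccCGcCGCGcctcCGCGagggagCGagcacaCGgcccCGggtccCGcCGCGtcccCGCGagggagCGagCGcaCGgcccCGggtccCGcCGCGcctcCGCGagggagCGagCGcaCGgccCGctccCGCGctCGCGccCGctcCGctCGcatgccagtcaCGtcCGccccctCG
The Dnmt3l window holds 5 CG, the Tet1 window 15 and the Tet2 window 51, against a median of 6 over all 32851 windows of the same length, of which 92.1% hold at least 1. Fewer CG than in the Tet2 window were found in 99.9% of all windows, and fewer than in the Dnmt3l window in 44.4%. All 10 members matched the promoter table, in 17 windows that hold between 2 and 51 CG. These counts describe the windows and were not tested against expression.

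Between 10807631 and 15069899 reads per library fell on genes, and the fewest reads of any member in a library was 202. The targeted genes fell with Dox in the lines labelled for them, Nanog to a lesser extent than the others. Dox took Pou5f1 (Oct4) from 6420.1 and 6316 normalized counts to 162 and 184 in Oct4-cKO L-EPSCs, Sox2 from 4966 and 4701 to 47.0 and 53.1 in Sox2-cKO L-EPSCs, and Nanog from 9119 and 8847 to 3166 and 3112 in Nanog-cKO L-EPSCs, so the RNA of Nanog was reduced there and not lost. By the study's protein blots, Nanog protein was lost with Dox in Nanog-cKO L-EPSCs. The pluripotent cell markers were abundant in all ESC and untreated EPSC libraries, where the 10 genes summed to between 40435.5 and 92039 normalized counts. The J1 libraries also held markers of other cells. Their 10 fibroblast markers summed to 90706 to 92873 normalized counts in ESCs, 56757 to 56993 in D-EPSCs and 19365 to 19969 in L-EPSCs, and the 10 macrophage markers to 2745 to 2776, 21805 to 22105 and 16683 to 16816. In the cKO libraries the fibroblast markers summed to between 974 and 2256 and the macrophage markers to between 204 and 768, with the macrophage markers Tyrobp and C1qa at 0 in both libraries of 8 groups each. The labels do not say that replicates came from separate cultures, so p-values measure the spread between these libraries, which may be technical. In bulk RNA, fewer cells of a type and less RNA per cell cannot be told apart.

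Values are normalized counts, that is, reads divided by the size factor of the library, given for both libraries of a group. For each table a single limma model of log2(normalized count + 1) held all groups, and the Benjamini-Hochberg method adjusted p-values over every gene tested. Genes count as called, higher or lower, where the adjusted p was below 0.05 and the size of the log2 fold change exceeded 0.6 (1 for Dox). Calls on conversion and with Dox therefore rest on different fold thresholds. Each change is given with its standard error.

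**Figure D1:**
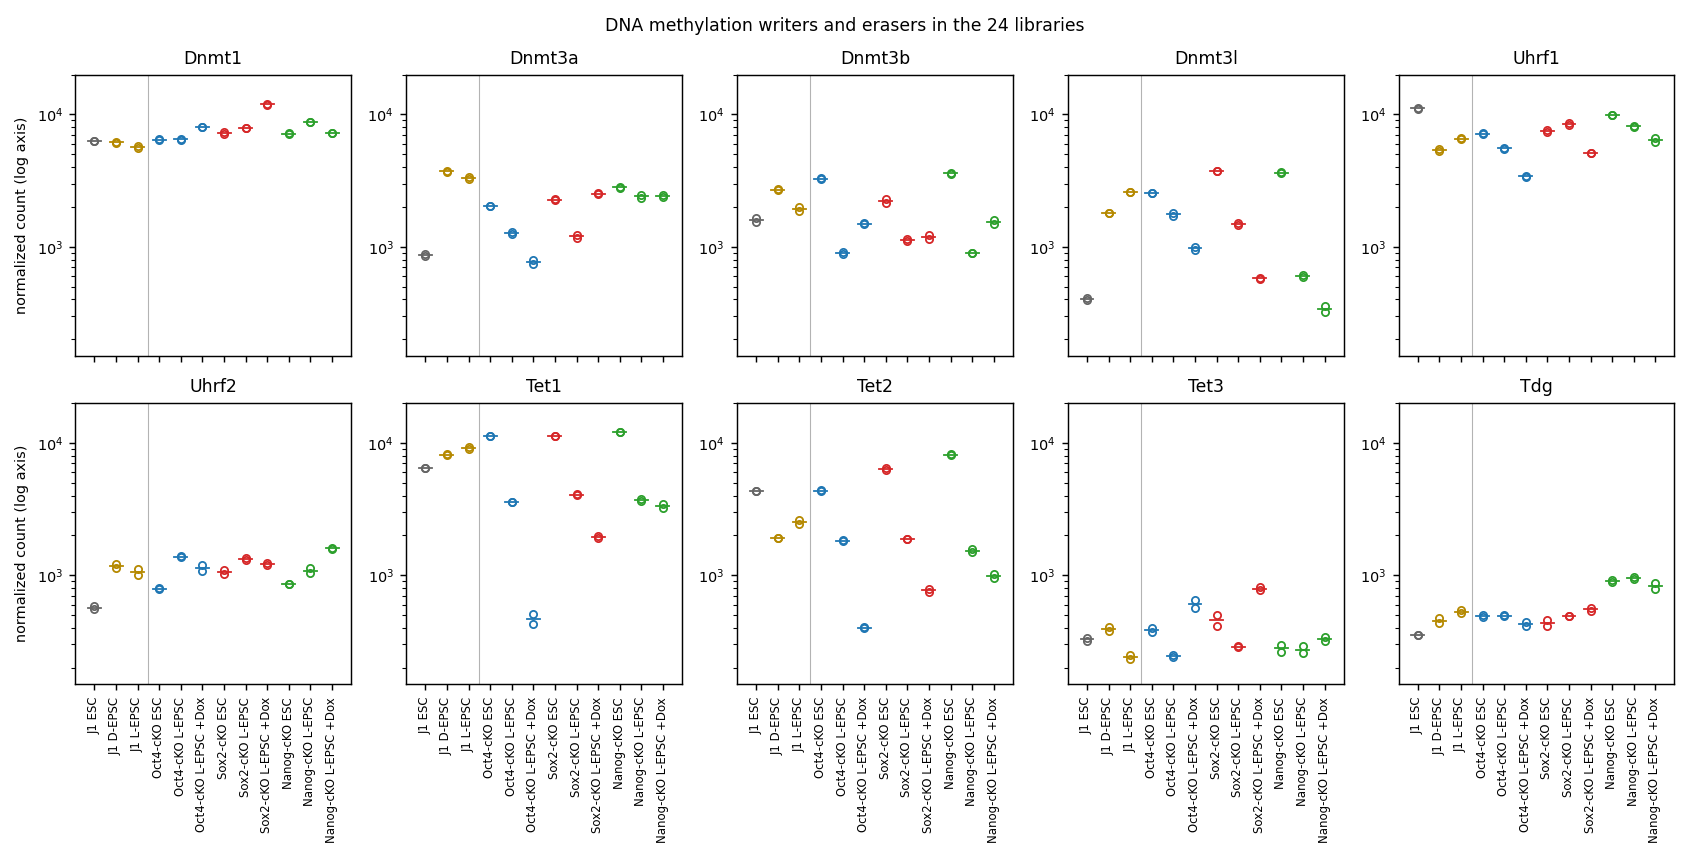
Normalized counts of the 10 members in the 24 libraries, on a log axis, with each library as an open circle and the group mean as a bar; the grey line separates the J1 table from the cKO table, which were normalized separately. Replicates lie close together, Dnmt3a and Dnmt3l are lowest in J1 ESCs among the J1 groups, and Tet1 and Tet2 are lowest in Dox-treated Oct4-cKO L-EPSCs.

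In J1 cells, Dnmt3a, Dnmt3l and Uhrf2 were higher in both EPSC states than in ESCs, Uhrf1 and Tet2 were lower, and Dnmt1 was not called. Against ESCs, 6 of the 10 members were called in D-EPSCs (4 higher, 2 lower), where 20.7% of all genes tested were called, and 5 in L-EPSCs (3 higher, 2 lower), where 20.3% were. Both comparisons use the same ESC libraries. Dnmt3l, the cofactor, had 397 and 412 normalized counts in ESCs, 1797 and 1789 in D-EPSCs and 2606 and 2572 in L-EPSCs, so the 3 states did not overlap. It rose by 2.14 ± 0.041 on the log2 scale in D-EPSCs and by 2.67 ± 0.041 in L-EPSCs (adjusted p = 3.4e-08 and 1.2e-08). Dnmt3a, one of the 2 de novo enzymes, had 888 and 857 in ESCs, 3730.2 and 3689 in D-EPSCs and 3253 and 3351 in L-EPSCs, and rose by 2.09 ± 0.035 and 1.92 ± 0.035 (adjusted p = 1.9e-08 and 2.8e-08). Dnmt3b moved less than its relatives. It had 1659.8 and 1547 in ESCs, 2682 and 2709 in D-EPSCs and 1859.8 and 1993 in L-EPSCs, a log2 fold change of 0.75 ± 0.048 in D-EPSCs, which was called (adjusted p = 1.2e-05), and of 0.26 ± 0.048 in L-EPSCs, which was under the fold threshold (adjusted p = 0.0031).

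The maintenance genes of J1 cells divided. Dnmt1, the copying enzyme, had 6283 and 6302 normalized counts in ESCs, 6132 and 6174 in D-EPSCs and 5588 and 5745 in L-EPSCs. Its log2 fold changes were −0.032 (95% interval −0.088 to 0.023) and −0.15 (−0.21 to −0.10). Uhrf1, which guides Dnmt1 to half-methylated sites, had 11249.9 and 10948 in ESCs against 5298 and 5499.9 in D-EPSCs and 6596 and 6515 in L-EPSCs. It fell in both, with log2 fold changes of −1.04 ± 0.027 and −0.76 ± 0.027 (adjusted p = 1e-07 and 5.3e-07). Uhrf2, its relative, which does not replace it in maintenance, went the other way, from 553 and 586 to 1206 and 1127 in D-EPSCs (1.03 ± 0.064, adjusted p = 9.5e-06) and 1105 and 1010.2 in L-EPSCs (0.89 ± 0.064, adjusted p = 2.1e-05). Within each library, Uhrf1 per kilobase of exon was 41.1 and 37.7 times Uhrf2 in ESCs, 8.86 and 9.84 times in D-EPSCs and 12.04 and 13.01 times in L-EPSCs.

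Among the J1 erasers, Tet2 was the member called against ESCs. It had 4357 and 4341 normalized counts in ESCs, 1911 and 1917 in D-EPSCs and 2455 and 2615 in L-EPSCs, changes of −1.18 ± 0.036 and −0.78 ± 0.036 on the log2 scale (adjusted p = 2.4e-07 and 2.1e-06). Tet1 had 6495 and 6467 in ESCs and was above that in every EPSC library, at 8081 and 8190.2 in D-EPSCs and 9286 and 9019 in L-EPSCs, but its log2 fold changes of 0.33 ± 0.023 and 0.50 ± 0.023 stayed under the fold threshold. Tet3, the form that is abundant in the oocyte and zygote, was the least expressed member per kilobase in all 3 J1 states. It had 318 and 338 in ESCs, 407 and 377 in D-EPSCs and 252 and 232 in L-EPSCs. L-EPSCs differed from ESCs by −0.44 ± 0.087 on the log2 scale (adjusted p = 0.0049) and D-EPSCs by 0.26 ± 0.087, both under the fold threshold although the groups did not overlap. It was the 1 member called between the EPSC states (−0.69 ± 0.087 in L-EPSCs against D-EPSCs, adjusted p = 0.00071), where 13.4% of all genes were called. Without D-EPSC replicate 2, 1913 genes in place of 2881 were called in this comparison, Tet3 among them. The D-EPSC and L-EPSC libraries were used as labelled. An earlier comparison of their RNA with protein ratios, not used or tested here, raised the question whether the 2 labels were exchanged. The study itself does not raise this question. If the labels were exchanged, the sign of the Tet3 change would turn. The D-EPSC and L-EPSC values of every J1 comparison would then change places. The log2 fold changes of Tdg, which had 353 and 352 in ESCs, 474 and 436 in D-EPSCs and 544 and 517 in L-EPSCs, were 0.36 ± 0.071 and 0.59 ± 0.071 and were not called. Without L-EPSC replicate 2, Tdg passed in L-EPSCs at 0.62 on the log2 scale.

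Markers of several cell types moved with these J1 comparisons. Against ESCs, 10 of 10 macrophage markers were called higher in D-EPSCs and 7 of 10 in L-EPSCs, and Lyz2, the lysozyme of macrophages, went from 1076 to 15677 and 12992 normalized counts. Of the fibroblast markers, 2 were called higher and 3 lower in D-EPSCs and 7 of 10 lower in L-EPSCs, and none was at 0 in any state. Trophoblast markers summed to between 2261 and 2263 in ESCs, 258 and 270.2 in D-EPSCs (6 of 11 called lower) and 1013 and 1015 in L-EPSCs (3 called higher and 4 lower). Primitive endoderm markers summed to between 15754 and 15878, 13093 and 13501, and 7861 and 7959, with 4 of 10 called higher and 2 lower in D-EPSCs and 4 higher and 1 lower in L-EPSCs. The pluripotent cell markers summed to between 70213 and 70577 in ESCs, 46921 and 47109 in D-EPSCs and 52116 and 52200.4 in L-EPSCs. Of these 10, 2 were called higher and 4 lower in D-EPSCs, the latter being Nanog, Klf4, Esrrb and Tfcp2l1, and 2 higher and 3 lower in L-EPSCs. The part of all these markers in the values of the members was not tested. Pou5f1, the pluripotency gene used for centring and 1 of the markers not called, lay between 10325 and 11833 in the 6 libraries. With each comparison centred on Pou5f1, the counts of members called in EPSCs against ESCs were within 1.5 times those above, and 2 members in place of 1 were called between L-EPSCs and D-EPSCs, Dnmt3b (−0.64) beside Tet3.

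**Figure D2:**
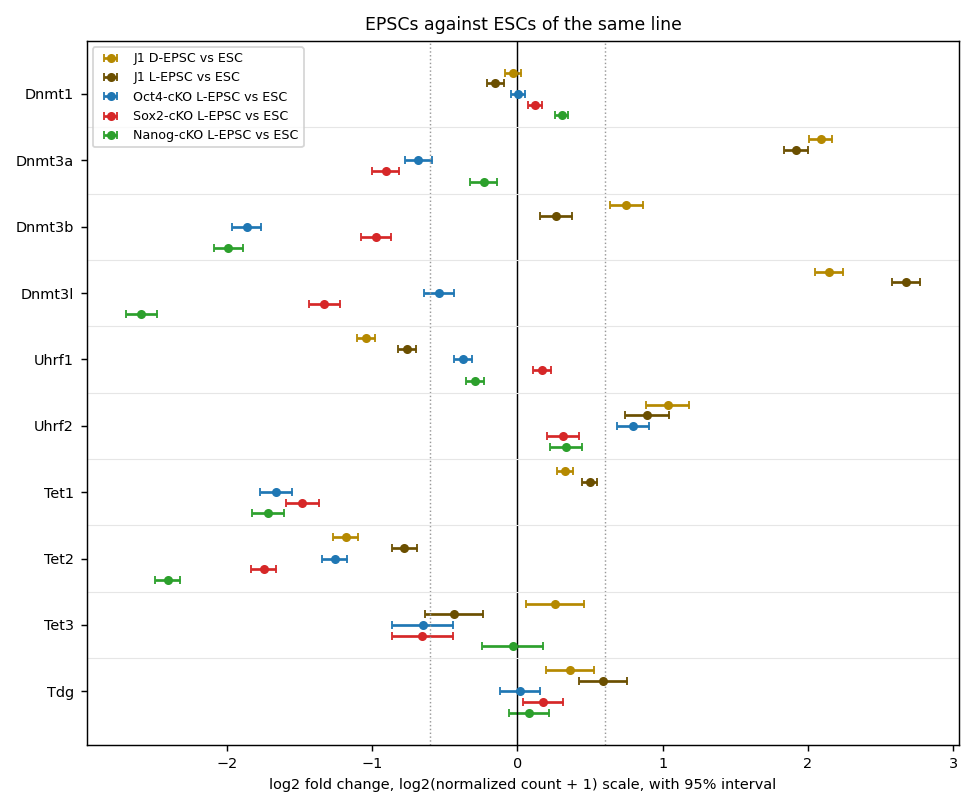
Log2 fold change of each member in EPSCs against ESCs of the same line, on the log2(normalized count + 1) scale, as a point with its 95% interval from limma; dotted lines mark the threshold of 0.6. Dnmt3a and Dnmt3l lie to the right of 0 in J1 cells and to the left in the 3 cKO lines, Tet2 lies to the left in all, and Dnmt1 stays near 0.

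In the cKO lines, on the same conversion from ESCs to untreated L-EPSCs, Dnmt3b, Tet1 and Tet2 were called lower in all 3 lines. In Oct4-cKO cells 6 members were called (1 higher, 5 lower) where 28.4% of all genes were, in Sox2-cKO cells 6 (all lower) where 19.6% were, and in Nanog-cKO cells 4 (all lower) where 26.9% were. Tet1 fell to between 3563 and 4081 in each line. It had 11347 and 11300.1 normalized counts in Oct4-cKO ESCs and 3579 and 3563 in their L-EPSCs, 11349.5 and 11303 and then 4035 and 4081 in Sox2-cKO cells, and 12137 and 12104 and then 3614 and 3754 in Nanog-cKO cells. The log2 fold changes were −1.66 ± 0.052, −1.48 ± 0.052 and −1.72 ± 0.052 (adjusted p = 2.4e-13, 3e-12 and 1.8e-13), and the differences between lines were not called, at −0.18 (−0.34 to −0.028), 0.053 (−0.10 to 0.21) and 0.24 (0.081 to 0.39) for Oct4-cKO minus Sox2-cKO, Oct4-cKO minus Nanog-cKO and Sox2-cKO minus Nanog-cKO. Tet2 fell by different amounts. Its counts went from 4385 and 4308 to 1832 and 1805 in Oct4-cKO cells (−1.26 ± 0.04), from 6221 and 6423 to 1892 and 1869.6 in Sox2-cKO cells (−1.75 ± 0.04) and from 8068 and 8239.6 to 1576 and 1493 in Nanog-cKO cells (−2.41 ± 0.04), with adjusted p of 3e-13, 2.1e-14 and 1.5e-16. The fall in Nanog-cKO cells was larger than in Oct4-cKO cells by 1.15 (1.03 to 1.27) and than in Sox2-cKO cells by 0.66 (0.54 to 0.78), and both differences were called.

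Of the de novo genes, Dnmt3b was called lower on conversion in 3 cKO lines, and Dnmt3a and Dnmt3l in 2 lines each. In the remaining line each of these was lower too, but under the fold threshold. Dnmt3b went from 3237 and 3307 to 918 and 879 in Oct4-cKO cells (−1.86 ± 0.048), from 2146 and 2281 to 1103 and 1148 in Sox2-cKO cells (−0.97 ± 0.048) and from 3544 and 3613 to 897 and 901 in Nanog-cKO cells (−1.99 ± 0.048), with adjusted p of 2.3e-14, 1.1e-10 and 9.7e-15. It was called in all 3 lines, and the change in Sox2-cKO cells was smaller than in Oct4-cKO cells (difference Oct4-cKO minus Sox2-cKO −0.89, −1.03 to −0.75) and in Nanog-cKO cells (Sox2-cKO minus Nanog-cKO 1.02, 0.87 to 1.16). Dnmt3l went from 3649 and 3593 to 615 and 587 in Nanog-cKO cells (−2.59 ± 0.049, adjusted p = 5.6e-16), the largest change of any member on conversion in these lines. In Sox2-cKO cells it went from 3735 and 3733 to 1504 and 1469 (−1.33 ± 0.049, adjusted p = 4.5e-12), and in Oct4-cKO cells from 2559 and 2564 to 1721 and 1800.2, where −0.54 ± 0.049 was under the fold threshold. All 3 differences between lines were called for Dnmt3l, at 0.79 (Oct4-cKO minus Sox2-cKO), 2.05 (Oct4-cKO minus Nanog-cKO) and 1.26 (Sox2-cKO minus Nanog-cKO). Dnmt3a fell in Oct4-cKO cells, from 2039 and 2045 to 1246 and 1299 (−0.68 ± 0.044, adjusted p = 1.4e-09), and in Sox2-cKO cells, from 2279 and 2244 to 1235 and 1175 (−0.91 ± 0.044, adjusted p = 1e-10). In Nanog-cKO cells the ESC libraries had 2851 and 2786 and the L-EPSC libraries 2468 and 2332 (−0.23 ± 0.044, not called), and the difference Sox2-cKO minus Nanog-cKO was −0.68 (−0.81 to −0.54).

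Of the remaining members, Uhrf2 and Tet3 were called on conversion of a cKO line and Dnmt1, Uhrf1 and Tdg were not. Dnmt1 was not called in any line, with 6466 and 6455 normalized counts in Oct4-cKO ESCs and 6409 and 6560.2 in their L-EPSCs, where the groups overlapped (−0.042 to 0.053 on the log2 scale), and with 0.12 (0.071 to 0.17) in Sox2-cKO and 0.30 (0.26 to 0.35) in Nanog-cKO cells. Uhrf1 was not called either, at −0.37 ± 0.03, 0.17 ± 0.03 and −0.29 ± 0.03 in the Oct4-, Sox2- and Nanog-cKO lines. Uhrf2 rose in Oct4-cKO cells, from 790.5 and 797 to 1364 and 1387 (0.79 ± 0.052, adjusted p = 1.8e-09), and was under the fold threshold in Sox2-cKO (0.31 ± 0.052) and Nanog-cKO cells (0.34 ± 0.052). Tet3 fell from 400.5 and 372 to 241 and 249 in Oct4-cKO cells (−0.65 ± 0.10, adjusted p = 3.8e-05) and from 413 and 501 to 285 and 291 in Sox2-cKO cells (−0.66 ± 0.10, adjusted p = 5.4e-05). In Nanog-cKO cells its groups overlapped, at 265 and 297 and 291 and 258. The Tet3 call in Sox2-cKO cells rested on ESC replicate 2, without which the log2 fold change was −0.52. It was also lost when the Sox2-cKO ESCs and untreated L-EPSCs were fitted alone (adjusted p = 0.059). Tdg was not called, with log2 fold changes of 0.02, 0.18 and 0.08.

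The J1 and cKO tables were normalized separately, so their levels cannot be compared directly and the difference between their conversions was not tested. Side by side, the log2 fold change of L-EPSCs against ESCs was 1.92 for Dnmt3a in J1 cells and −0.68, −0.91 and −0.23 in Oct4-, Sox2- and Nanog-cKO cells. For Dnmt3l it was 2.67 in J1 cells and −0.54, −1.33 and −2.59 in the cKO lines, and for Tet1 0.50 and −1.66, −1.48 and −1.72. In these 3 genes every J1 L-EPSC library lay above the J1 ESCs and every untreated cKO L-EPSC library below the ESCs of its line. Tet2 was called lower in all 4 lines. Within J1 ESCs, Dnmt3l per kilobase was 2.49 and 2.68 times Dnmt3a, and within the ESCs of the cKO lines 6.98 to 9.27 times. The RNA of the targeted genes, counted per gene and not for the transgene alone, moved on conversion as well. Pou5f1 was 8943 and 9063 in Oct4-cKO ESCs against 6420.1 and 6316 in their untreated L-EPSCs. Sox2 was 5688 and 5497 against 4966 and 4701 in Sox2-cKO cells, and Nanog was 14993 and 15127 against 9119 and 8847 in Nanog-cKO cells. Pluripotent cell markers moved too, with 7, 4 and 8 of 10 called lower in the Oct4-, Sox2- and Nanog-cKO lines, as did markers of other cells. Of 10 primitive endoderm markers, 6 were called higher and 1 lower in Oct4-cKO cells, where their sum went from between 9320 and 9493 to between 20659 and 20707, 3 and 5 in Sox2-cKO cells, from between 8887 and 9112 to between 13279.5 and 13429, and 5 and 2 in Nanog-cKO cells, from between 4910.2 and 4966 to between 5131 and 5147. Of 11 trophoblast markers, 5 were called higher in Oct4-cKO cells, where the sum went from between 2238 and 2448 to between 4865 and 5072, 4 lower in Sox2-cKO cells, from between 6284 and 6334 to between 2448 and 2460.2, and 4 higher and 2 lower in Nanog-cKO cells, from between 1278 and 1322 to between 957 and 1084. The part of these shifts in the values of the members was not tested.

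With Dox, which shuts off the transgene in L-EPSCs, Tet1 and Tet2 fell and Tet3 rose in Oct4- and Sox2-cKO cells. The untreated L-EPSC libraries of this comparison are also those of the conversion. Of the 10 members, 3 were called in Oct4-cKO cells (1 higher, 2 lower), where 19.3% of all genes were called, and 5 in Sox2-cKO cells (2 higher, 3 lower), where 15.1% were. In Nanog-cKO cells limma called 0, where 5.39% of all genes were called, although 9 of the 10 had an unadjusted p under 0.05. EdgeR and DESeq2 on the recovered reads called 0 as well, and with a fold threshold of 0.6 in place of 1 limma called 3. Tet1 went from 3579 and 3563 to 432 and 506 in Oct4-cKO cells (−2.93 ± 0.052, or 7.62-fold lower, adjusted p = 1.4e-16) and from 4035 and 4081 to 1969 and 1926 in Sox2-cKO cells (−1.06 ± 0.052, adjusted p = 7.6e-11). In Nanog-cKO cells it had 3614 and 3754 without and 3201 and 3446 with Dox (−0.15 ± 0.052). The difference of the Dox effect was −1.87 (−2.03 to −1.71) for Oct4-cKO minus Sox2-cKO and −2.78 (−2.94 to −2.62) for Oct4-cKO minus Nanog-cKO, both called. Tet2 went from 1832 and 1805 to 399.6 and 405 in Oct4-cKO cells (−2.17 ± 0.04), from 1892 and 1869.6 to 785 and 753 in Sox2-cKO cells (−1.29 ± 0.04) and from 1576 and 1493 to 949.5 and 1017 in Nanog-cKO cells (−0.64 ± 0.04, under the fold threshold of 1). Its change differed between every pair of lines, by −0.88 (Oct4-cKO minus Sox2-cKO), −1.53 (Oct4-cKO minus Nanog-cKO) and −0.65 (Sox2-cKO minus Nanog-cKO). Tet3 rose from 241 and 249 to 561 and 646 in Oct4-cKO cells (1.29 ± 0.10, adjusted p = 1.3e-08) and from 285 and 291 to 770.5 and 808 in Sox2-cKO cells (1.45 ± 0.10, adjusted p = 4.3e-09). With 291 and 258 and then 319 and 339 in Nanog-cKO cells (0.26 ± 0.10, adjusted p = 0.066), the change there was smaller by 1.03 than in Oct4-cKO and by 1.19 than in Sox2-cKO cells.

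**Figure D3:**
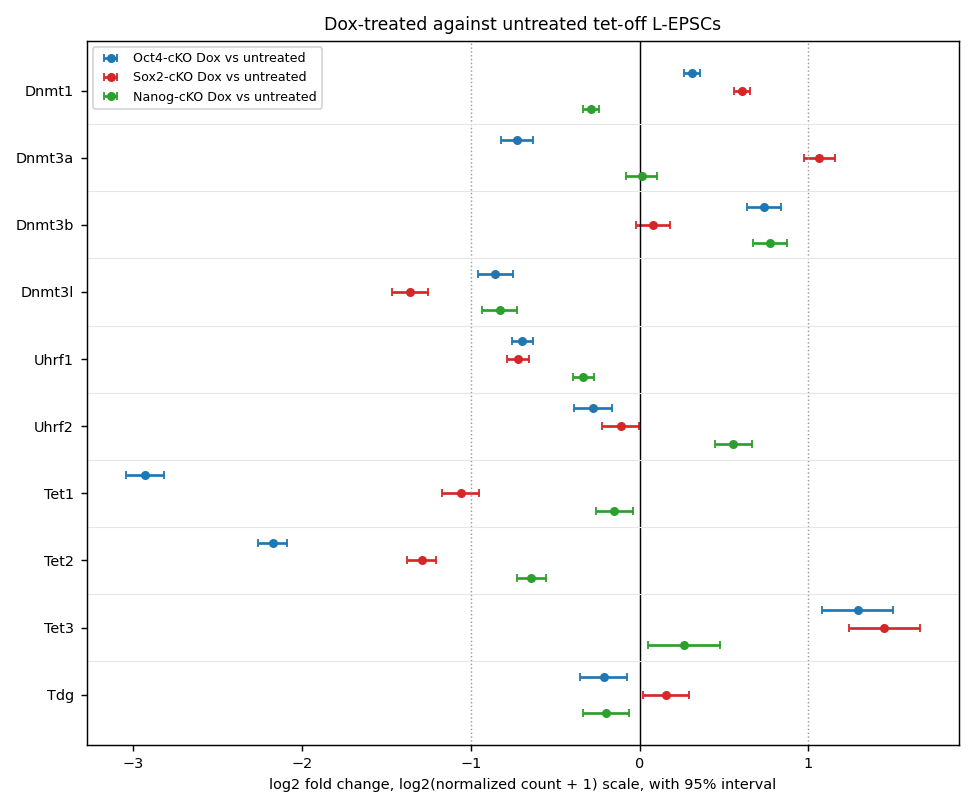
Log2 fold change of each member in Dox-treated against untreated L-EPSCs of the same cKO line, on the log2(normalized count + 1) scale, as a point with its 95% interval from limma; dotted lines mark the threshold of 1. Tet1 and Tet2 lie farthest to the left in Oct4-cKO cells, Tet3 lies to the right in Oct4- and Sox2-cKO cells, and Dnmt3a lies on opposite sides of 0 in those lines.

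These shifts changed the make-up of the Tet family within a library, where levels are compared per kilobase of exon. Tet3 was 4.69% and 4.87% of the summed Tet level in untreated Oct4-cKO L-EPSCs and 41.0% and 42.6% with Dox. In Sox2-cKO L-EPSCs it was 5.09% and 5.18% without and 24.1% and 25.5% with Dox, and in Nanog-cKO L-EPSCs 5.92% and 5.28% without and 8.23% and 8.16% with Dox. In the ESCs of the cKO lines it lay between 1.38% and 2.99%. The summed Tet level per kilobase went from 464 and 461 to 123 and 137 in Oct4-cKO L-EPSCs with Dox and from 506 and 507 to 289 and 286 in Sox2-cKO L-EPSCs, so the larger share of Tet3 stood within a smaller total.

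**Figure D4:**
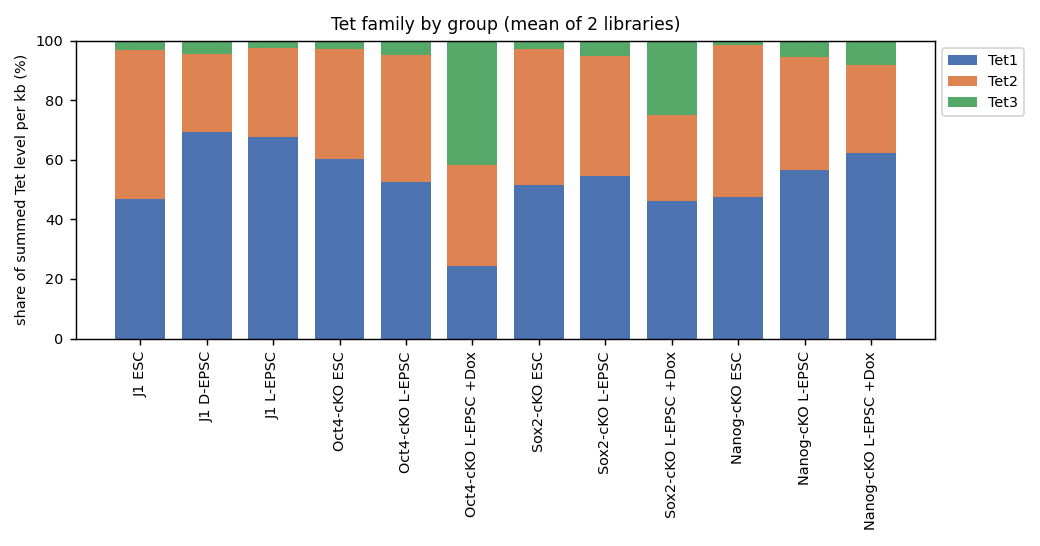
Share of Tet1, Tet2 and Tet3 in the summed Tet level per kilobase of exon, in percent, as the mean of the 2 libraries of each group. Tet3 is a thin band in every ESC and untreated group and widens in the Dox-treated Oct4- and Sox2-cKO L-EPSCs.

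With Dox the de novo genes had different changes in the lines. Dnmt3a rose in Sox2-cKO cells, from 1235 and 1175 to 2493 and 2553 (1.07 ± 0.044, adjusted p = 8.3e-12), had 1246 and 1299 and then 742 and 796 in Oct4-cKO cells (−0.73 ± 0.044, under the fold threshold) and overlapped in Nanog-cKO cells (2468 and 2332, then 2367 and 2475). The difference between the Oct4- and Sox2-cKO lines was −1.79 (−1.92 to −1.66, adjusted p = 5.4e-12). Dnmt3l fell in Sox2-cKO cells, from 1504 and 1469 to 575 and 582 (−1.36 ± 0.049, adjusted p = 1.8e-12), and its changes of −0.86 ± 0.049 in Oct4-cKO and −0.83 ± 0.049 in Nanog-cKO cells were under the fold threshold. Dnmt3b was not called in any line. It had log2 fold changes of 0.74 ± 0.048 in Oct4-cKO, 0.081 ± 0.048 in Sox2-cKO and 0.77 ± 0.048 in Nanog-cKO cells, and the change in Sox2-cKO cells was smaller than in Oct4-cKO cells by 0.66 (0.51 to 0.80). The counts of Dnmt3b were 918 and 879 without and 1501 and 1496 with Dox in Oct4-cKO cells, and 897 and 901 without and 1603 and 1475 with Dox in Nanog-cKO cells. At the 0.6 used for conversion, Dnmt3b would pass in Oct4- and Nanog-cKO cells (limma adjusted p = 1.4e-09 and 5.1e-09). Dnmt3l would pass in these lines as well, and Dnmt3a in Oct4-cKO cells.

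No maintenance gene passed the threshold of 1 for Dox, but the order of Uhrf1 and Dnmt1 per kilobase changed in Oct4- and Sox2-cKO cells. At the 0.6 used for conversion, Uhrf1 would pass in Oct4- and Sox2-cKO cells (limma adjusted p = 7.8e-12 and 8.5e-12). Dnmt1 would pass in Sox2-cKO cells, narrowly, at 0.605 (limma adjusted p = 2.5e-12). Uhrf1 had 5579.8 and 5478 without and 3386 and 3444 with Dox in Oct4-cKO cells (−0.69 ± 0.03), 8555 and 8317 and 5133 and 5109.6 in Sox2-cKO cells (−0.72 ± 0.03) and 8123 and 8088 and 6670.4 and 6214 in Nanog-cKO cells (−0.33 ± 0.03). Dnmt1 had 6409 and 6560.2 without and 8048 and 8043 with Dox in Oct4-cKO cells (0.31 ± 0.022), 7854 and 7832 and 11859 and 12008 in Sox2-cKO cells (0.61 ± 0.022) and 8779 and 8828 and 7234 and 7179 in Nanog-cKO cells (−0.29 ± 0.022). Per kilobase, Uhrf1 was 1.03 to 1.35 times Dnmt1 in the untreated L-EPSC libraries of the Oct4- and Sox2-cKO lines and 0.520 to 0.535 times with Dox. In Nanog-cKO L-EPSCs Uhrf1 stayed above Dnmt1, at 1.14 and 1.13 times without and 1.14 and 1.07 times with Dox. For Dnmt1 the change differed between lines, by 0.60 (Oct4-cKO minus Nanog-cKO, 0.53 to 0.67) and 0.89 (Sox2-cKO minus Nanog-cKO, 0.83 to 0.96). The first of these lies at the threshold of 0.6 and fell to between 0.58 and 0.60 when any of 4 libraries was left out (Oct4-cKO untreated and Dox-treated replicate 1, Nanog-cKO untreated and Dox-treated replicate 2). Uhrf2 had changes of −0.28 ± 0.052, −0.11 ± 0.052 and 0.56 ± 0.052 in the Oct4-, Sox2- and Nanog-cKO lines, with differences of −0.83 for Oct4-cKO minus Nanog-cKO and −0.67 for Sox2-cKO minus Nanog-cKO. Tdg was not called, with −0.21, 0.16 and −0.20.

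Over the members, the difference of the conversion effect was called for 2 of 10 between the Oct4- and Sox2-cKO lines (10.0% of all genes), 3 between Oct4- and Nanog-cKO (14.7%) and 5 between Sox2- and Nanog-cKO (14.8%). The difference of the Dox effect was called for 4, 6 and 7 of 10, where 12.9%, 22.6% and 18.3% of all genes were. Differences were called beyond 0.6 in each case.

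Markers of other cells moved with Dox. Trophoblast markers, of the lineage that Oct4 loss is known to open, were called higher for 7 of 11 genes in Oct4-cKO L-EPSCs, where their sum went from between 4865 and 5072 to between 29619 and 29962, and for 8 of 11 in Sox2-cKO L-EPSCs, from between 2448 and 2460.2 to between 12937 and 13064. In Nanog-cKO L-EPSCs 1 of 11 was called, and the sum went from between 957 and 1084 to between 1331 and 1337. Primitive endoderm markers went in sum from between 20659 and 20707 to between 8920.1 and 9103 in Oct4-cKO L-EPSCs (1 called higher and 5 lower), from between 13279.5 and 13429 to between 6979.5 and 6997 in Sox2-cKO L-EPSCs (2 and 4) and from between 5131 and 5147 to between 4385 and 4456 in Nanog-cKO L-EPSCs (2 lower). Pluripotent cell markers summed to between 8239.6 and 8628 in Dox-treated Oct4-cKO cells, 11653 and 12151 in Sox2-cKO cells and 35249 and 35900.2 in Nanog-cKO cells, with 7, 9 and 1 of 10 called lower. The part of these markers in the values of the members was not tested.

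**Figure D5:**
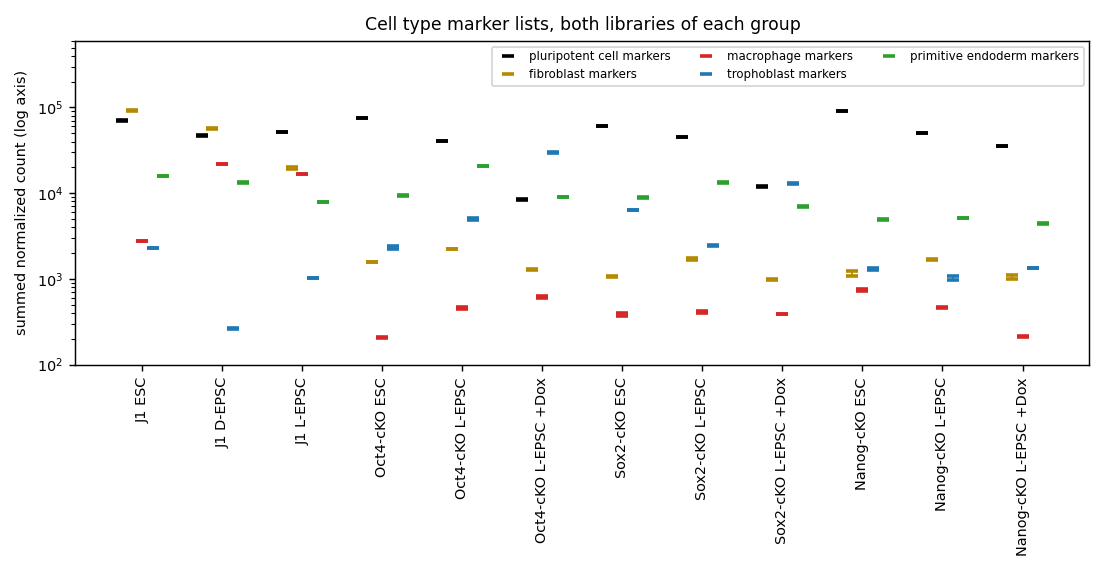
Summed normalized counts of 5 cell type marker lists in each group, on a log axis, with a bar for each of the 2 libraries joined by a line. Fibroblast markers are high in the J1 libraries, macrophage markers are high in the J1 EPSCs, and trophoblast markers are high in the Dox-treated Oct4- and Sox2-cKO L-EPSCs.

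Per kilobase of exon, the first and last places among the members were nearly always the same. Uhrf1 was the highest in 10 of the 12 groups and Dnmt1 in the Dox-treated Oct4- and Sox2-cKO L-EPSCs, and Tet3 was the lowest in 11 groups and Tet1 in Dox-treated Oct4-cKO L-EPSCs. In J1 ESCs the order ran from Uhrf1 (2606 normalized counts per kilobase) and Dnmt1 (1195) through Tet2 (473), Tet1 (441), Dnmt3b (314), Dnmt3l (135), Uhrf2 (66.3), Tdg (65.6) and Dnmt3a (52.4) to Tet3 (29.6). In J1 L-EPSCs Dnmt3l stood next after Uhrf1 and Dnmt1, at 866 per kilobase, and it did so in J1 D-EPSCs, at 600.0. In the ESCs of all 3 cKO lines Dnmt3l held that place as well, at 857, 1250 and 1212 per kilobase in the Oct4-, Sox2- and Nanog-cKO lines. Neighbours overlapped for Uhrf2 and Tdg in J1 and Oct4-cKO ESCs, for Dnmt3a and Tdg in Nanog-cKO ESCs and Dox-treated L-EPSCs, for Dnmt3l and Tet2 in Dox-treated Nanog-cKO L-EPSCs and for Tdg and Dnmt3b in untreated Nanog-cKO L-EPSCs. The first and last places did not depend on the length used, and the places between did: with the longest protein-coding transcript in place of all exons, which takes Dnmt3a from 16.6 to 9.69 kb and Uhrf2 from 8.59 to 3.54 kb, 1 of 12 groups kept the whole order.

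The other genes of the pathway are given by group means, and their counts stand against the shares of all genes called: 20.7% in J1 D-EPSCs and 20.3% in J1 L-EPSCs against ESCs, 28.4%, 19.6% and 26.9% on conversion and 19.3%, 15.1% and 5.39% with Dox in Oct4-, Sox2- and Nanog-cKO cells. Of 14 writer regulators and recruiters, 2 were called lower in J1 D-EPSCs, and 1 higher and 3 lower in J1 L-EPSCs, counts not far from the shares of all genes. Prdm14, which represses the de novo genes in naive cells, fell in both, from a mean of 846 to 241 and 245 normalized counts (−1.81 ± 0.078 and −1.78 ± 0.078 on the log2 scale). On conversion of the cKO lines, 1 was called higher and 6 lower in Oct4-cKO cells, 4 lower in Sox2-cKO cells, and 1 higher and 5 lower in Nanog-cKO cells. Dppa3, which holds Uhrf1 away from chromatin in oocytes, rose from 48.1 to 836 normalized counts in Oct4-cKO cells (a log2 fold change of 4.1, adjusted p = 3.3e-13) and from 135 to 772 in Nanog-cKO cells (2.54 ± 0.13, adjusted p = 1.2e-10). Zfp57, which keeps methylation at imprinted regions, fell in the 3 lines, from 7189.8 to 2199, 4049 to 1783 and 7665 to 1190.1 (−1.71 ± 0.048, −1.18 ± 0.048 and −2.69 ± 0.048). With Dox, 6 were called lower in Oct4-cKO cells and 1 higher and 5 lower in Sox2-cKO cells, and the single call in Nanog-cKO cells was Dppa3, higher, from 772 to 3015 (1.96 ± 0.13, adjusted p = 1.5e-08). Prdm14 fell with Dox from 536 to 38.4 in Oct4-cKO and from 529 to 34.1 in Sox2-cKO cells (−3.77 ± 0.11 and −3.92 ± 0.11). The medians of this list over the 9 comparisons lay between −0.39 and 0.16, against 0 to 0.013 over all genes.

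Of 10 maintenance cofactors, limma called 0 in the 3 J1 comparisons, on conversion of Sox2- and Nanog-cKO cells and with Dox in Nanog-cKO cells, as did edgeR and DESeq2, with an unadjusted p under 0.05 for 6 to 8 of them. In Oct4-cKO cells 4 were called lower on conversion, among them Pcna, the replication clamp, from 3374 to 1639 (−1.04 ± 0.043). Hells, a remodeller needed for methylation of repeats, fell with Dox in Oct4-cKO cells from 3172 to 1242 (−1.35 ± 0.034) and in Sox2-cKO cells from 4118 to 2004 (−1.04 ± 0.034). Of 21 S phase genes, 7 were called lower in J1 D-EPSCs, where the median was −0.39, and 1 in J1 L-EPSCs (−0.092). With Dox 1 was called higher and 1 lower in each of the Oct4- and Sox2-cKO lines (medians −0.38 and −0.33). On conversion 1 was called higher and 5 lower in Oct4-cKO cells, 1 and 1 in Sox2-cKO cells, and 4 higher in Nanog-cKO cells.

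Of 11 Tet cofactors and regulators, 2 were called higher and 2 lower on conversion in Oct4-cKO cells (28.4% of all genes were called), 2 and 3 in Sox2-cKO cells (19.6%), and 2 and 3 in Nanog-cKO cells (26.9%), with list medians of −0.39, −0.024 and −0.42. Vhl, part of a ubiquitin ligase, rose in all 3, from 279 to 863, 254 to 666 and 217 to 635 (1.62 ± 0.08, 1.39 ± 0.08 and 1.54 ± 0.08). Qser1, which works with Tet1 to keep bivalent promoters unmethylated, fell in all 3 (−1.77 ± 0.079, −1.08 ± 0.079 and −1.06 ± 0.079). In J1 cells 3 were called higher and 1 lower in D-EPSCs, and 1 and 2 in L-EPSCs, where Qser1 rose in D-EPSCs from 1126 to 2021 (0.84 ± 0.038). Idh1, which makes the 2-oxoglutarate that Tet enzymes need, fell from 3974 to 1666 in J1 D-EPSCs (−1.25 ± 0.034) and rose from 1547 to 3130.2 in Oct4-cKO cells (1.02 ± 0.044). With Dox 1 was called lower in Oct4-cKO cells, and limma, edgeR and DESeq2 called 0 in the other lines, where 7 had an unadjusted p under 0.05 in each.

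Of 14 genes of base excision repair after Tet, 3 were called higher and 1 lower on conversion in Oct4-cKO cells, which is about the share of all genes (28.4%), 2 and 2 in Sox2-cKO cells (19.6% of all genes), and 6 and 1 in Nanog-cKO cells (26.9%). Gadd45b, a stress gene linked to demethylation, rose in the 3 lines from 160.2 to 1684, 433 to 1239.9 and 184 to 870.4 (3.39 ± 0.074, 1.52 ± 0.074 and 2.23 ± 0.074) and fell in J1 L-EPSCs from 381 to 131 (−1.53 ± 0.10). Apex1, the endonuclease that follows the glycosylase, fell in the 3 lines (−1.47 ± 0.064, −0.66 ± 0.064 and −1.22 ± 0.064). In J1 cells 2 were called higher and 4 lower in D-EPSCs, and 2 and 3 in L-EPSCs. Of 12 genes of methyl donor supply, Mat2a, which makes the methyl donor S-adenosylmethionine, fell on conversion of the 3 cKO lines (−1.41 ± 0.04, −0.87 ± 0.04 and −1.15 ± 0.04), and Ahcy, which clears the by-product, fell with Dox in Oct4-cKO (3621 to 1189, −1.61 ± 0.055) and Sox2-cKO cells (3951 to 1439.7, −1.46 ± 0.055). Of 9 methyl-CpG readers, Mbd2 rose with Dox in Oct4-cKO cells (416 to 1156, 1.47 ± 0.082) and Sox2-cKO cells (313 to 831, 1.41 ± 0.082). On conversion 2 methyl donor genes were called higher and 3 lower in Oct4-cKO, 1 and 1 in Sox2-cKO and 2 and 4 in Nanog-cKO cells, and of the readers 3 were called lower in Oct4-cKO, 2 lower in Sox2-cKO, and 1 higher and 2 lower in Nanog-cKO cells. In Nanog-cKO cells with Dox limma, edgeR and DESeq2 called 0 genes of these 3 lists, with an unadjusted p under 0.05 for 7, 9 and 6 of the repair, methyl donor and reader genes.

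Germline genes, whose CpG-rich promoters are silenced by methylation in most somatic cells, had high list medians on conversion. Of 20, 9 were called higher and 4 lower in J1 D-EPSCs (median log2 fold change 1.24) and 10 higher and 1 lower in J1 L-EPSCs (0.90), where the median over all genes was 0.013 and 0. Sohlh2, a germ cell transcription factor, rose from 16.4 to 643 in D-EPSCs (5.21 ± 0.13) and to 343 in L-EPSCs (4.31 ± 0.13), and Piwil2, a piRNA pathway gene, from 29.6 to 204 and to 300.5 (2.75 ± 0.14 and 3.30 ± 0.14). Tuba3a fell from 552 to 181 and to 143 (−1.61 ± 0.15 and −1.94 ± 0.15), and Tex19.1 from 925 to 292 in D-EPSCs (−1.66 ± 0.064). In sum the list went from between 2245 and 2416 in ESCs to between 2509 and 2555 in D-EPSCs. In L-EPSCs it summed to between 2909 and 2920. On conversion of the cKO lines 10 were called higher and 2 lower in Oct4-cKO, 11 and 3 in Sox2-cKO, and 11 and 1 in Nanog-cKO cells (medians 0.63, 0.84 and 1.54). Dazl, an RNA-binding protein of germ cells, rose in all 3, from 121 to 3284, 131 to 2415 and 91.7 to 2543 (4.75 ± 0.11, 4.21 ± 0.11 and 4.78 ± 0.11, adjusted p = 6e-15, 7.3e-14 and 5.3e-15). Mael, another piRNA pathway gene, fell in the 3 lines (−0.83 ± 0.12, −1.0 ± 0.12 and −1.65 ± 0.12), so not all of the list moved one way. With Dox 3 were called higher and 7 lower in Oct4-cKO cells (median −0.39), where Dazl fell from 3284 to 663 (−2.31 ± 0.11), 3 and 1 in Sox2-cKO cells (0.49), and 0 in Nanog-cKO cells by limma, edgeR or DESeq2 (−0.028, with an unadjusted p under 0.05 for 9). Against ESCs, more genes of the list were called higher than lower in both J1 EPSC states and in the untreated L-EPSCs of all 3 cKO lines. A relation of these genes to the members was not tested.

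Among the members, the profiles over libraries of Tet1 and Tet2 were alike in the cKO table (Pearson's r = 0.95 of log2 values over 18 libraries) and not in the J1 table (r = −0.775 over 6 libraries). For Uhrf1, r was 0.857 with Tet1 and 0.799 with Tet2 in the cKO table, and −0.818 with Tet1 and 0.994 with Tet2 in the J1 table. These correlations describe libraries that fall into 9 and 3 groups with shared lines and media. Among genes averaging 100 or more normalized counts, those most like a member over the 18 cKO libraries included Hykk and Gpa33 for Tet1 (r = 0.985 and 0.982), Gid8, Metap2 and Wdr46 for Dnmt3b (0.98, 0.976 and 0.973), Adam23, Tmem131 and Spry4 for Tet2 (0.979, 0.978 and 0.97) and Mtor, Herc1 and Slc4a3 for Dnmt3a (0.977, 0.938 and 0.925). Slc17a9 was the most like Dnmt3l (0.96), Nipsnap2 Tet3 (0.956), Vim Uhrf1 (0.959), Larp4 Tdg (0.958), Selenot Uhrf2 (0.944) and Rap1gap2 Dnmt1 (0.942). Over the 6 J1 libraries the same pairs ranged from −0.951 for Vim with Uhrf1 to 0.942 for Wdr46 with Dnmt3b.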

How the data were processed

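Poly(A) RNA of 24 libraries was sequenced by the authors, who per the labels and the study's methods trimmed reads with Trim Galore 0.6.4 (phred 20, minimum length 60), aligned them to NCBIM37 release 67 with STAR 2.7.9a and counted them per gene with HTSeq 0.11.2. The deposited values are a signal per gene, the count divided by the DESeq2 size factor of the library, with 1 table for J1 cells (6 libraries) and 1 for the cKO lines (18). Dividing by the value of 1 read gave whole reads for 100% of values (tolerance 0.05 reads). Libraries held 10807631 to 15069899 reads on genes, which limits counting error only.

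The 21533 (J1) and 24007 (cKO) genes that reached 2 reads over a table were tested with limma 3.58.1 in R 4.3.3 on log2(normalized count + 1), in 1 model per table, with the Benjamini-Hochberg adjustment. Alternatives used edgeR 4.0.16, DESeq2 1.42.0, TMM scaling, a pseudocount of 0.1, other filters, fold thresholds and centring, a replicate block and leaving out each library. The scripts were tested on simulated data. Copies of members were sought with minimap2 2.31 (at least 95% identity over 200 bases). Groups came from the sample labels. Members were fixed by name; of the pathway genes, up to 2 called higher and 2 called lower per list and comparison, with a mean of at least 100, are those the text may name. The members and lists were chosen with earlier results of these data known. Of the genes whose pattern was most like a member, 1 is not reported here.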

Additional observations from a re-analysis of the deposited data

Results flagged for a closer look

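Effects of the same contrast differed between the cKO lines for several members, by the limma interaction test with an adjusted p under 0.05 and a difference beyond 0.6 on the log2 scale. For conversion, the difference Oct4-cKO minus Sox2-cKO was −0.889 for Dnmt3b and 0.788 for Dnmt3l. Oct4-cKO minus Nanog-cKO was 2.05 for Dnmt3l, 1.15 for Tet2 and −0.62 for Tet3. Sox2-cKO minus Nanog-cKO was −0.676 for Dnmt3a, 1.02 for Dnmt3b, 1.26 for Dnmt3l, 0.661 for Tet2 and −0.623 for Tet3. Both Tet3 differences passed narrowly and ended without single libraries, at −0.598 to −0.534 against Oct4-cKO and −0.54 to −0.484 against Sox2-cKO.

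For Dox, the difference Oct4-cKO minus Sox2-cKO was −1.79 for Dnmt3a, 0.656 for Dnmt3b, −1.87 for Tet1 and −0.883 for Tet2. Oct4-cKO minus Nanog-cKO was 0.6 for Dnmt1, −0.74 for Dnmt3a, −0.831 for Uhrf2, −2.78 for Tet1, −1.53 for Tet2 and 1.03 for Tet3. Sox2-cKO minus Nanog-cKO was 0.894 for Dnmt1, 1.05 for Dnmt3a, −0.692 for Dnmt3b, −0.667 for Uhrf2, −0.91 for Tet1, −0.648 for Tet2 and 1.19 for Tet3. The Tet2 difference was −0.598 without Dox-treated Nanog-cKO replicate 2.

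On conversion to L-EPSCs, every library moved one way in J1 cells and the other way in a cKO line for several members. These differences between tables were not tested. The J1 changes were −0.151 for Dnmt1, 1.92 for Dnmt3a, 0.264 for Dnmt3b, 2.67 for Dnmt3l, −0.759 for Uhrf1 and 0.498 for Tet1. In Oct4-cKO cells they were −0.682 for Dnmt3a, −1.86 for Dnmt3b, −0.541 for Dnmt3l and −1.66 for Tet1. In Sox2-cKO cells they were 0.119 for Dnmt1, −0.908 for Dnmt3a, −0.975 for Dnmt3b, −1.33 for Dnmt3l, 0.168 for Uhrf1 and −1.48 for Tet1. In Nanog-cKO cells they were 0.303 for Dnmt1, −0.232 for Dnmt3a, −1.99 for Dnmt3b, −2.59 for Dnmt3l and −1.72 for Tet1.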

How the results depend on the processing

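Of the log2 fold changes of members under the alternatives, 1877 kept direction and call, 25 changed sign, 14 lost the call and 4 gained one; of the counts of members called, 194 stayed within 1.5 times and 7 did not. With a fold threshold of 1, 2 members were called in J1 L-EPSCs against ESCs, 0 in L-EPSCs against D-EPSCs, and 3 each on conversion of Oct4- and Sox2-cKO cells. With 0.6 for Dox, 7 were called in Oct4-cKO and 3 in Nanog-cKO cells, and in Sox2-cKO cells Dnmt1 and Uhrf1 passed beside the 5 called at 1. Centred on Pou5f1, a setting chosen after seeing the data, 2 members were called in J1 L-EPSCs against D-EPSCs. Of all genes, a fold threshold of 1 called 2899 in place of 4380 in J1 L-EPSCs against ESCs, 1836 in place of 2881 in L-EPSCs against D-EPSCs (1913 without D-EPSC replicate 2), and 4466, 2990 and 4196 in place of 6822, 4713 and 6457 on conversion of Oct4-, Sox2- and Nanog-cKO cells, and 0.6 for Dox called 5568 in place of 3628 in Sox2-cKO and 2386 in place of 1293 in Nanog-cKO cells. Of all genes, 479 in place of 1293 were called for Dox in Nanog-cKO cells when only the groups compared were fitted. Sign changes touched values near 0: Dnmt1 in J1 D-EPSCs (0.14 centred on Pou5f1), Dnmt1 on conversion of Oct4-cKO cells (−0.00139 with median centring, −0.0117 to 0.0221 without 1 library), Tdg there (−0.000822 to 0.0409), Tet3 on conversion of Nanog-cKO cells (0.0045 by edgeR, 0.0036 with TMM, −0.12 to 0.0526 without 1 library) and Dnmt3a with Dox there (−0.0279 to 0.054). Differences between lines also changed sign without 1 library, for Tet3 on conversion (Oct4-cKO minus Sox2-cKO, −0.137 to 0.142), Uhrf2 on conversion (Sox2-cKO minus Nanog-cKO, −0.0792 to 0.0366) and, for Dox (Oct4-cKO minus Nanog-cKO), Dnmt3b (−0.096 to 0.0241), Dnmt3l (−0.108 to 0.0544) and Tdg (−0.0915 to 0.0649). Dnmt3l for Dox (Sox2-cKO minus Nanog-cKO) passed at −0.61 without Dox-treated Nanog-cKO replicate 2. The cause was not tested. Replicate numbers did not pair samples (correlations of deviations −0.0093 to −0.0013 over 3 pairs of J1 groups and −0.028 to 0.040 over 36 pairs of cKO groups), and with the replicate block the counts of members called were 6, 5 and 1 in the J1 comparisons, 6, 6 and 4 on conversion and 3, 5 and 0 for Dox in Oct4-, Sox2- and Nanog-cKO cells, as in the main fit without it.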
